A study of Mus musculus with 192 samples.

Results

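Skor1 (ENSMUSG00000022245) is 1 of the 41128 genes with an Ensembl identifier in a table of mouse hippocampus RNA counts. It was chosen by its own measured levels. They were close to the detection limit in wild-type mice, high in zQ175 mice of 10 months, and lower in such mice given HTT-10150 at 2 and 6 months of age. The difference between genotypes and that HTT-10150 difference are therefore given as descriptions with no test, and tests are kept for other comparisons. Those with NTC mice treated at these ages reuse mice that entered the choice.

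Skor1 encodes a transcriptional corepressor of the Ski and Sno family. Proteins of this family bind transcription factors and SMADs, the carriers of TGF-beta and BMP signals, and bring histone deacetylases to the genes they bind. In the embryonic dorsal spinal cord Skor1 is known as a partner of the homeodomain protein LBX1 in interneurons.

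The study used zQ175 knock-in mice, which carry an expanded CAG repeat in Htt and model Huntington's disease, and wild-type (WT) mice. Within each genotype the mice were untreated, or received a non-targeting siRNA (NTC), HTT-10150, which is directed against full-length HTT mRNA, or HTT-634 together with HTT-486 (HTT-634.486), which are directed against HTT1a, the short HTT transcript that carries exon 1. The 3 regimens were 2[4]6 (treated at 2 months of age, collected at 6 months), 6[4]10 (treated at 6 months, collected at 10 months) and 2.6[8]10 (treated at 2 and 6 months, collected at 10 months). With 2 genotypes and 4 treatments this makes 24 groups of 8 mice, 4 female and 4 male. Each mouse gave 1 hippocampus library of poly(A)-selected RNA, 192 in all. The sources used here give neither the dose and route of the siRNAs nor whether the zQ175 mice carried 1 or 2 mutant alleles. HTT-634 and HTT-486 were only given together, so their separate effects cannot be told apart.

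The libraries held 8.4 to 56.0 M counts (M for mega) in 2[4]6, 13.4 to 41.3 M counts in 6[4]10 and 13 to 65.7 M counts in 2.6[8]10. Levels are given as CPM, the counts of a gene for each M counts of its library, scaled for library composition. Markers of dentate granule cells and of CA1 pyramidal cells were present in every library, whereas the summed level of 8 cerebellar and hindbrain markers was at most 23.8 CPM. In 1 library, replicate female_1 of the WT HTT-10150 group of 2.6[8]10, the summed level of 8 striatal markers was 7901 CPM, against 132 to 406 CPM in the other 191. That library also held the highest Skor1 level of any WT mouse. For 2 more libraries Skor1 itself stands far from the rest of the group: female_4 of the zQ175 HTT-10150 group of 2[4]6, and male_2 of the zQ175 HTT-10150 group of 6[4]10. Results that rest most on any of these 3 libraries are given with and without them. The 3 libraries also enter the estimate of the spread of other tests, and not all of those are repeated without them. In 3 further libraries the genes that tell the sexes apart went against the label. In the zQ175 HTT-10150 group of 6[4]10, female_4 held 1.81 CPM of Xist together with Y-linked genes, and male_4 held 809 CPM of Xist and 0.0578 CPM of Y-linked genes. In the WT NTC group of 2.6[8]10, female_2 held 0.713 CPM of Xist with 0.634 CPM of Y-linked genes. The labelled sex was kept for all.

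In GENCODE vM21 (GRCm38) Skor1 lies on the minus strand of chromosome 9 from 63138170 to 63148961, with 3 transcripts, the longest of 3657 bases, and no other annotated gene overlaps it. None of the 3793 stretches of 50 bases in its transcripts occurs in a transcript of another gene. The 250 bases before its outermost RefSeq start site (chr9:63148962-63149211, minus strand, GRCm38.p6) are shown because they are dense in CG dinucleotides, the DNA methylation target of mammals, written here in capitals. They hold 36 CG, against a median of 6 over 32851 promoter windows, and 2.58% of those windows hold as many.
Skor1 outer start: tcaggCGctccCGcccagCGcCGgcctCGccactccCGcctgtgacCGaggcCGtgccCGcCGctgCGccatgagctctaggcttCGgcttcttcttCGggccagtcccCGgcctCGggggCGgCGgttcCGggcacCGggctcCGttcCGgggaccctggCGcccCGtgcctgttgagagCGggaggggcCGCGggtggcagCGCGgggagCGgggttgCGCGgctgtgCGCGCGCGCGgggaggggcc
The windows before the other 2 RefSeq start sites, which lie inside the gene, hold 14 and 12 CG. Of the genes named below, Bcl2 has a window with 36 CG, Pax2 one with 25 and Foxd2 one with 16. No methylation or binding was measured in these mice.

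In WT mice Skor1 was scarcely detected. The 96 WT libraries held 392 Skor1 counts in all, with 2 libraries at 0 and at most 12 counts in any. The 12 WT group means lay between 0.102 and 0.38 CPM, and all neighbours in the order of these means overlapped in their ranges. The highest WT mean, 0.38 ± 0.24 CPM (SD, n = 8) under HTT-10150 in 2.6[8]10, includes the library with striatal markers at 0.849 CPM. Without it the mean was 0.313 ± 0.16 CPM (SD, n = 7), and the highest of the other 95 WT libraries held 0.501 CPM. Of the 8 WT HTT-10150 mice of 2.6[8]10, 5 lay above all WT NTC mice of that regimen, that library among them. The ratio of these means was 1.92, on at most 12 counts in any library, and the difference was not tested.

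At 6 months Skor1 in zQ175 mice was little above WT. The 8 untreated zQ175 mice of 2[4]6 ranged from 0.274 to 0.482 CPM (median 0.336), each above all 8 untreated WT mice, which averaged 0.153 ± 0.0792 CPM (SD). NTC zQ175 mice ranged from 0.0444 to 0.572 CPM (median 0.397), with 1 above all WT NTC mice and 1 below all of them (ratio of means 1.85). HTT-634.486 zQ175 mice ranged from 0.107 to 0.329 CPM (median 0.255), with 6 above all WT mice given the same siRNAs (ratio of means 1.51). Of the 32 zQ175 libraries of this regimen 31 lay at or below 0.572 CPM, and these levels rest on few counts, with a median of 9 over the 32 libraries. The remaining library, female_4 of HTT-10150, held 401 Skor1 counts, or 16.01 CPM.

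At 10 months every zQ175 library held more Skor1 than any WT library. The 64 libraries ranged from 2.11 to 30.4 CPM and each held at least 32 counts. In 6[4]10 untreated zQ175 mice ranged from 7.37 to 19.95 CPM (median 13.6) and averaged 13.2 ± 4.49 CPM (SD, n = 8), 86.4 times the mean of untreated WT mice, 0.152 ± 0.0992 CPM. In 2.6[8]10 the untreated range was 10.5 to 20.4 CPM (median 13.1) and the mean 13.9 ± 3.24 CPM (SD, n = 8), 63.6 times the WT mean of 0.219 ± 0.1 CPM. In NTC mice the zQ175 means were 69.3 times (6[4]10) and 49.3 times (2.6[8]10) those of WT mice, and the untreated ratio at 6 months was 2.34. The WT groups hold so few counts that these ratios are imprecise: leaving out any replicate label moved the log2 ratio of untreated mice between 6.27 and 6.72 in 6[4]10 and between 5.87 and 6.2 in 2.6[8]10. The 6-month and 10-month mice belong to different regimens, so age and regimen cannot be told apart. Because whole hippocampus was measured, more cells with Skor1 mRNA and more Skor1 mRNA per cell cannot be told apart either.

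**Figure D1:**
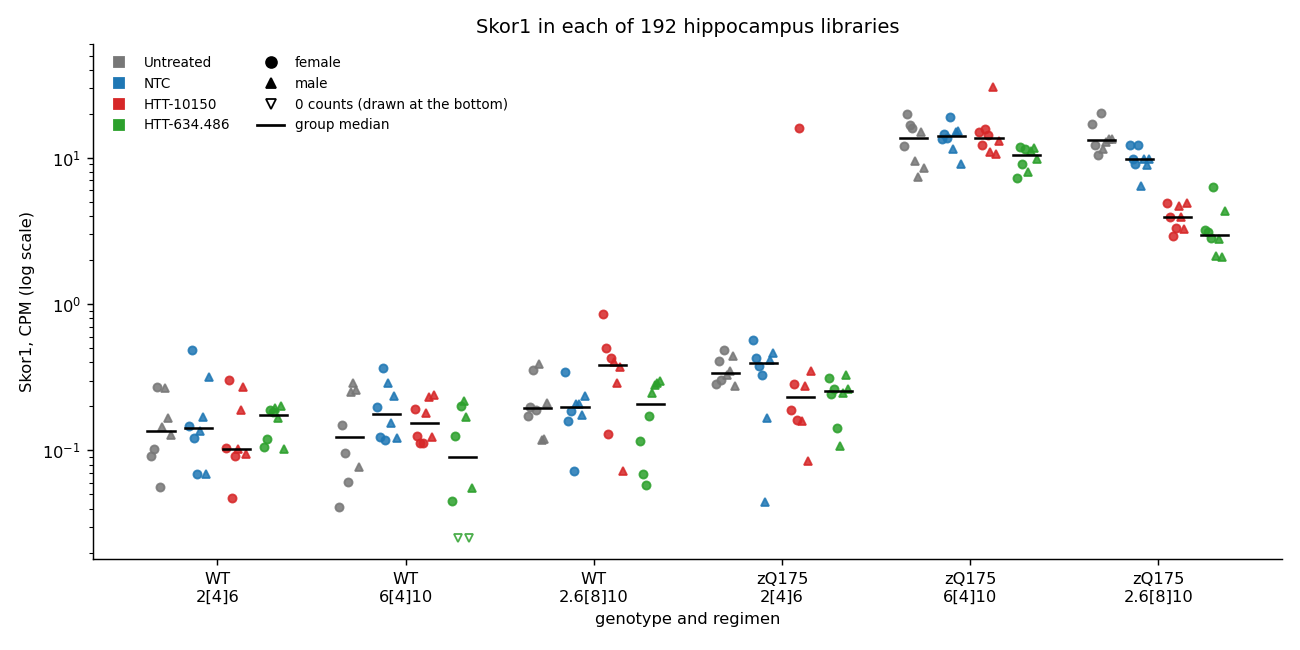
Skor1 in CPM (log axis) in each of the 192 libraries, by genotype and regimen on the horizontal axis; colours are treatments, circles females, triangles males, horizontal lines group medians, and open triangles at the bottom the 2 libraries with 0 counts. The 64 zQ175 libraries of 10 months lie between 2.11 and 30.4 CPM, and 1 zQ175 library of 2[4]6 lies among them at 16.01 CPM.

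The 2 untreated zQ175 groups of 10 months had similar Skor1 levels. They differed by 0.10 ± 0.29 on the log2 scale (2.6[8]10 minus 6[4]10, ± SE, edgeR quasi-likelihood test over all 192 libraries, adjusted p = 0.936), in a comparison in which 2.72% of 16627 genes were called at an adjusted p under 0.05. All adjusted p-values are Benjamini-Hochberg values over every gene tested, and "called" has this meaning throughout. Without female_4 of the 2[4]6 zQ175 HTT-10150 group, which shares the estimate of the spread, the 2 untreated groups differed by 0.09 ± 0.17 (SE, edgeR adjusted p = 0.88).

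After treatment at 2 and 6 months, Skor1 was lower in zQ175 mice given either HTT-directed reagent. NTC mice of 2.6[8]10 ranged from 6.38 to 12.2 CPM (median 9.8, mean 9.78 ± 1.88 SD, n = 8). HTT-634.486 mice ranged from 2.11 to 6.34 CPM (median 2.96, mean 3.36 ± 1.39 SD, n = 8). All 8 lay below all 8 NTC mice, and the highest of them, female_4 at 6.34 CPM, lay just under the lowest NTC mouse. Skor1 was 1 of the 0.908% of 15852 genes called lower, with a log2 difference of -1.54 ± 0.18 (SE, adjusted p = 1.63e-08). An exact permutation test on CPM over all 12870 splits of the 16 mice gave p = 0.000155, the smallest it can give, and 0.00124 after adjustment over 8 such tests. HTT-10150 mice ranged from 2.91 to 4.92 CPM (median 3.93, mean 3.99 ± 0.798 SD, n = 8), again all below the NTC mice, with a mean of 40.7% of theirs, against 34.3% for HTT-634.486. Both comparisons share the NTC mice, so the HTT-634.486 test is not independent of the choice of the gene. The HTT-10150 and HTT-634.486 mice overlapped, with a ratio of means of 1.19. Even so, all 16 mice of these groups stayed above every WT mouse, and the zQ175 means were 10.5 times (HTT-10150; 12.7 times without the WT library with striatal markers) and 17.7 times (HTT-634.486) those of WT mice given the same siRNA.

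NTC mice of this regimen had a lower Skor1 mean than untreated mice, and the tests differ on this difference, in groups that both entered the choice of the gene. Of the 8 NTC mice 6 lay below all untreated mice, and the NTC mean was 70.2% of the untreated mean. The log2 difference was -0.51 ± 0.17 (SE) and was not called by edgeR (adjusted p = 0.146; 1.02% of 15852 genes were called). Without the WT library with striatal markers, which shares the estimate of the spread, it was -0.51 ± 0.15 (SE, edgeR adjusted p = 0.0715). The exact permutation test on CPM gave p = 0.00233, adjusted 0.00932, and limma-voom gave -0.46 with an adjusted p of 0.0195. The summed level of 8 choroid plexus markers moved in the same direction, from a mean of 2529 CPM in untreated mice (39.4 to 9489) to 867 CPM in NTC mice (23.6 to 6330.2). None of these 8 markers was called in this comparison. Other marker sums were also lower in NTC mice (thalamus and habenula, means of 106 and 86.9 CPM) or higher (astrocytes, 3807 and 4191 CPM). The part of any of these sums in the Skor1 difference was not tested.

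**Figure D2:**
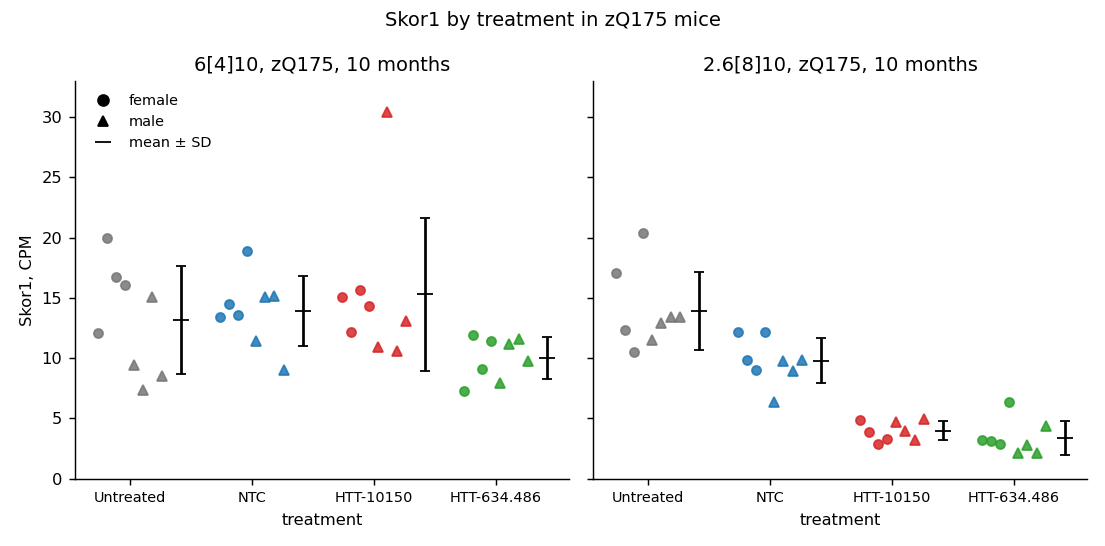
Skor1 in CPM in zQ175 mice of 10 months, by treatment, for 6[4]10 (left) and 2.6[8]10 (right); points are mice (circles female, triangles male) and bars the mean ± SD of 8 mice. In 2.6[8]10 the 16 mice given HTT-10150 or HTT-634.486 lie between 2.11 and 6.34 CPM, and the lowest NTC mouse lies just above them at 6.38 CPM, whereas in 6[4]10 all 4 groups overlap.

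After a single treatment at 6 months the groups overlapped. NTC mice of 6[4]10 ranged from 9 to 18.9 CPM (median 14.03, mean 13.9 ± 2.91 SD, n = 8) and did not differ from untreated mice beyond their spread (0.08 ± 0.17 on the log2 scale, SE, adjusted p = 1). In that comparison edgeR called 0 of 16374 genes, with 612 at an unadjusted p under 0.05. HTT-10150 mice ranged from 10.6 to 30.4 CPM (median 13.7, mean 15.3 ± 6.39 SD, n = 8), with a log2 difference from NTC of 0.15 ± 0.17 (SE, adjusted p = 0.92; 0.0672% of genes called). Without male_2, the mouse at 30.4 CPM, the other 7 averaged 13.1 ± 1.99 CPM (SD) and the difference was -0.10 ± 0.15 (SE, adjusted p = 0.983). HTT-634.486 mice ranged from 7.29 to 11.9 CPM (median 10.5, mean 10.03 ± 1.76 SD, n = 8), and 2 of them lay below all NTC mice. Their log2 difference of -0.46 ± 0.17 (SE) from NTC was not called by edgeR (adjusted p = 0.154; 0.959% of genes called), while the exact permutation test gave p = 0.00653, adjusted 0.0174. Without male_2 of HTT-10150, which shares the estimate of the spread, edgeR gave -0.46 ± 0.15 (SE, adjusted p = 0.0863).

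Whether the HTT-634.486 difference was larger after 2 treatments than after 1 was tested directly over all 192 libraries. The difference of the differences was -1.09 ± 0.43 (log2, SE, unadjusted p = 0.0119, adjusted p = 1), and edgeR called 0 of 16627 genes in this comparison, with 618 at an unadjusted p under 0.05. With limma-voom Skor1 reached -1.14 with an adjusted p of 0.0407. With edgeR the value was -1.08 (adjusted p = 0.183) without female_4 of the 2[4]6 HTT-10150 group, which shares the estimate of the spread. It was -1.27 (adjusted p = 0.0298) without all mice with the replicate label female_4. The call thus depends on the tool and on the mice that enter. The same test was not made for HTT-10150, whose difference in 2.6[8]10 is part of the choice of the gene.

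In 2[4]6, where Skor1 is near the detection limit, edgeR called 1 treatment difference from NTC, that of HTT-10150, and it rests on 1 mouse. NTC differed from untreated by 0.05 ± 0.66 (log2, SE, adjusted p = 0.991; 0.0302% of 16575 genes called), and HTT-634.486 from NTC by -0.59 ± 0.69 (adjusted p = 0.959; 0.0302% called). Without female_4 of HTT-10150, which shares the estimate of the spread, the former was 0.04 ± 0.28 (SE, adjusted p = 0.977). The latter was then -0.58 ± 0.30 (SE, adjusted p = 0.812). The HTT-634.486 mean, 0.238 CPM, was 66.6% of the untreated mean of 0.358 CPM, and 6 of the 8 mice lay below all untreated mice. That difference was not tested. HTT-10150 mice averaged 2.19 ± 5.58 CPM (SD, n = 8), and edgeR called them above NTC (2.34 ± 0.59, adjusted p = 0.0206; 3.57% of genes called). Without female_4 the other 7 mice averaged 0.215 ± 0.0912 CPM (SD) and the difference turned to -0.81 ± 0.32 (SE, adjusted p = 0.143).

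The mouse female_4 of that group stood apart from the other zQ175 mice of 2[4]6 in more genes than Skor1. Pax2, a paired-box factor of the developing kidney and hindbrain, stood at 18.4 CPM against at most 1.3 in the 31 other zQ175 mice of 2[4]6. Foxd2 and Foxd1, forkhead factors of the embryo, stood at 6.11 against at most 0.76 and 8.34 against at most 2.42 CPM. Twist1, a mesenchymal bHLH factor, stood at 6.51 against at most 1.88 CPM. The medians of the 64 zQ175 mice of 10 months were 7.05 CPM for Pax2, 4.81 for Foxd2, 2.65 for Foxd1 and 2.45 for Twist1, so these levels in female_4 lay above them. Of 30 developmental transcription factors examined, 14 were higher in this mouse than in all 31 others, 4 of these on 3 or fewer counts. The list was drawn up with earlier results of these mice known. The share of all genes in which this mouse stood highest is not given here. Whether 14 of 30 is particular to the list therefore cannot be told. Rprm, which encodes a cell-cycle inhibitor, stood at 19.5 CPM, below all 31. Over 15821 genes the log2 profile of female_4 correlated with the mean profile of the zQ175 libraries of 6[4]10 at 0.9943 and with its own regimen at 0.9935. With the mean profile of the zQ175 libraries of 2.6[8]10 it correlated at 0.9937. Among the 31 others 1 was likewise closer to 6[4]10 than to 2[4]6, and 0 were closer to 2.6[8]10. Its Htt level, 88.2 CPM, lay within the range of the other 7 HTT-10150 mice, whose lowest was 63.9 CPM, and its Xist level matched the labelled sex. Nothing in the labels sets this mouse apart, and what does was not tested.

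In 6[4]10 male_2 of the HTT-10150 group stood high in the same direction. Its 889 Skor1 counts gave 30.4 CPM against 15.7 CPM in the next mouse of the group, while its Htt level was 68.1 CPM. Of the 30 developmental transcription factors 14 were higher in this mouse than in the 31 other zQ175 mice of 6[4]10, and 11 of these were also above all others in female_4 of 2[4]6. Among the 11, Pax2 stood at 24.1 CPM against at most 14.2, Twist1 at 19.6 against at most 3.7, and Foxd1 at 17.4 against at most 5.04 CPM. Lbx1, the partner of Skor1 in the spinal cord and also among the 11, stood at 6.85 CPM on 200 counts against at most 0.227 CPM. In female_4 of 2[4]6, however, Lbx1 held only 2 counts (0.0798 CPM against at most 0.075). Tlx1 and Hoxd3, also among the 11, held 1 and 2 counts there. No share over all genes is given for the 14 or for the 11. The groups of factors high in these 2 mice were described after the values had been seen.

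Within the HTT-10150 groups no relation of Skor1 to the level of Htt from mouse to mouse was detected. Htt, the target of HTT-10150, averaged 109 ± 37.4 CPM in 2[4]6, 87.3 ± 34.8 in 6[4]10 and 75.2 ± 27.8 in 2.6[8]10 (SD, n = 8 each). Its log2 difference from NTC was -0.44 ± 0.11 (adjusted p = 0.0244), -0.69 ± 0.13 (adjusted p = 0.00542) and -0.92 ± 0.11 (adjusted p = 6.16e-08). With HTT-634.486 Htt differed from NTC by -0.02 ± 0.11 in 2.6[8]10 (adjusted p = 0.976), in the same mice in which Skor1 was lower. Over the 8 HTT-10150 mice the log2 levels of Skor1 and Htt gave Pearson's r = -0.18 in 2[4]6 (exact permutation p = 0.686), -0.25 in 6[4]10 (exact p = 0.518) and 0.18 in 2.6[8]10 (exact p = 0.644). Adjusted over the 3 regimens each p was 0.686. Spearman's rho was -0.21 (exact p = 0.619), -0.43 (exact p = 0.299) and 0.36 (exact p = 0.389), and without the 2 mice farthest from the median Htt level r was -0.04, -0.31 and 0.35. Counts are of the whole Htt gene, so full-length Htt and Htt1a transcripts cannot be told apart here.

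**Figure D3:**
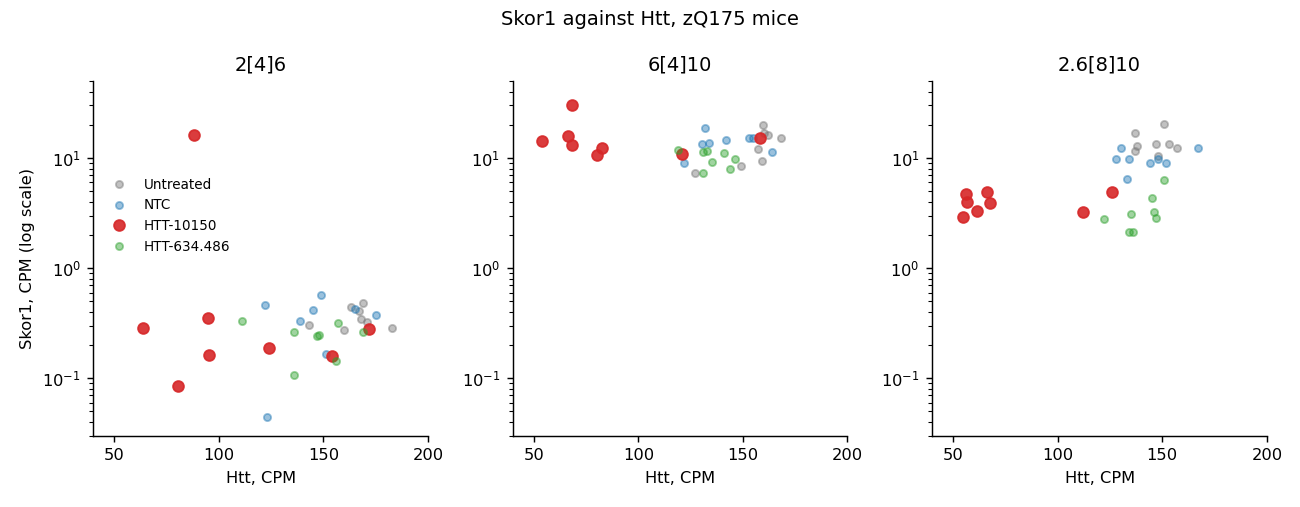
Skor1 (CPM, log axis) against Htt (CPM) in zQ175 mice, 1 panel per regimen, each point a mouse and each colour a treatment, with HTT-10150 mice drawn large. In 2.6[8]10 the HTT-634.486 mice reach Skor1 levels as low as the HTT-10150 mice at Htt levels like those of NTC mice.

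No difference between the sexes was called. Among zQ175 mice females minus males gave 1.39 ± 0.62 in 2[4]6 (log2, SE, adjusted p = 0.205; 4.01% of genes called; 0.19 without female_4 of HTT-10150), 0.17 ± 0.14 in 6[4]10 (adjusted p = 0.65; 0.192% called) and 0.21 ± 0.12 in 2.6[8]10 (adjusted p = 0.395; 1.56% called). Without male_2 of HTT-10150 the 6[4]10 value was 0.30 ± 0.11 (SE, edgeR adjusted p = 0.218). The highest single mean by sex was 16.3 ± 9.52 CPM (SD, n = 4) in male HTT-10150 mice of 6[4]10, which includes male_2. In that HTT-10150 group the sex genes of female_4 and male_4 went against their labels. The HTT-10150 difference of females minus that of males was -0.43 ± 0.31 in 6[4]10 and -0.46 ± 0.32 in 2.6[8]10 (adjusted p = 1 for both). In 6[4]10 it was 0.08 without male_2 and -0.52 without the libraries against their sex label. In those 2 comparisons edgeR called 0 genes, with 356 and 399 at an unadjusted p under 0.05.

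Among zQ175 libraries of 10 months, the genes that varied with Skor1 from mouse to mouse were sought after the means of treatment and sex had been subtracted. Likeness is the Pearson r of the remaining log2 CPM values over the 32 libraries of a regimen, computed in each regimen separately for 13133 genes. These values are descriptions, and the genes of a library share its depth and its piece of tissue. The median gene had an r of 0.005 in 6[4]10 and 0.019 in 2.6[8]10, and 6 genes exceeded 0.5 in both. Pax2 was the most alike by the lower of its 2 values, 0.82 in 6[4]10 and 0.617 in 2.6[8]10. Foxd2 reached 0.876 and 0.523, and Pold2, a subunit of DNA polymerase delta, 0.684 and 0.536. With the number in the library name also subtracted, both stood at 0.173 in 2.6[8]10, and Pax2 at 0.607. Twist1 reached 0.553 and 0.524, but its value in 6[4]10 rests on male_2, without which it was 0.033. Zfp746, a zinc-finger repressor, reached 0.588 and 0.522, and Dennd2a, an exchange factor of Rab proteins, 0.587 and 0.51. Pogz, Vps52, Scap and Usp19 completed the 10 most alike, with lower values between 0.462 and 0.492. No gene lay under -0.5 in both regimens. The lowest were Rprm (-0.486 and -0.541), the apoptosis inhibitor Bcl2 (-0.483 and -0.436), the smooth-muscle actin Acta2 (-0.431 and -0.441), Gm26530 and Cradd.

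Without male_2 Pax2 stood at 0.72 in 6[4]10, Foxd2 at 0.822, Pold2 at 0.495, Zfp746 at 0.53, Dennd2a at 0.673 and Rprm at -0.396. Foxd1 stood at 0.66 in 6[4]10 and 0.26 in 2.6[8]10, and at 0.30 in 6[4]10 without that mouse. The same measure gave -0.01 and 0.22 for Htt, and 0.17 and -0.11 for the total count of the library. In 2[4]6 the likeness of Pax2 was 0.81 over all 32 zQ175 libraries and 0.10 without female_4, and that of Foxd2 went from 0.71 to -0.10.

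**Figure D4:**
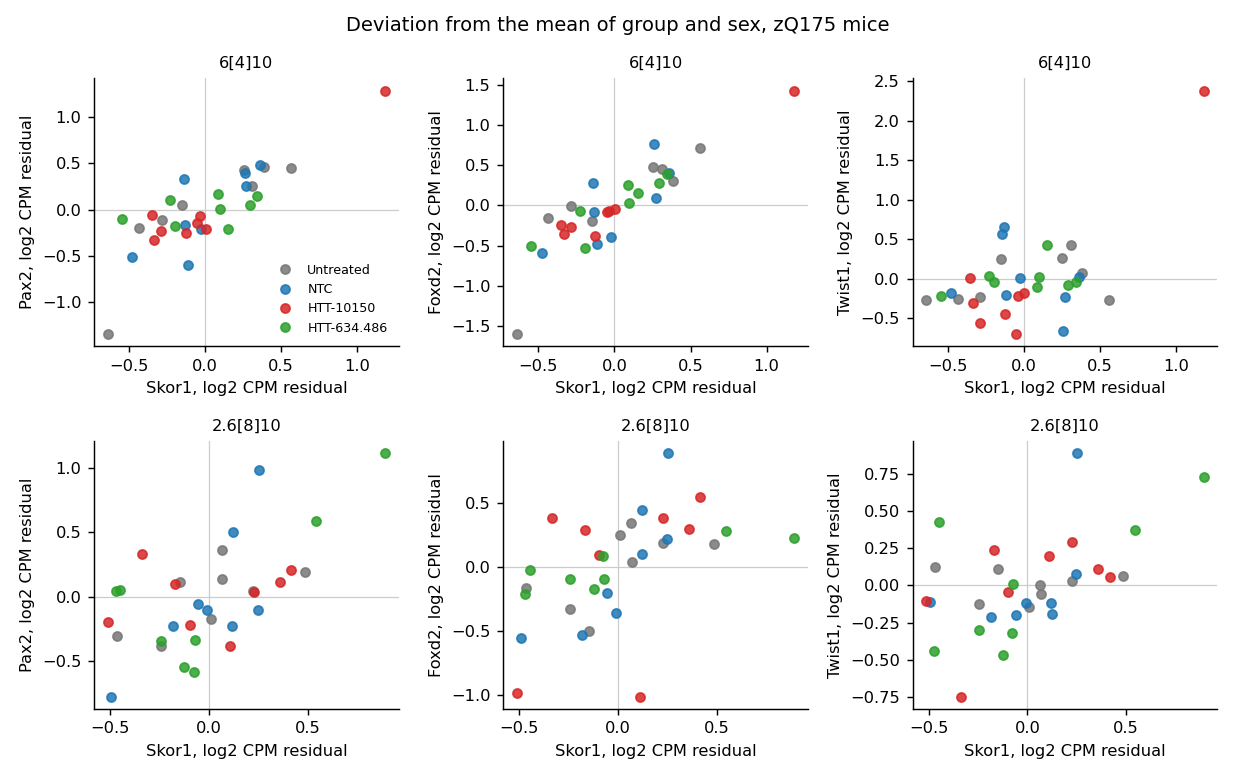
Deviation of Pax2, Foxd2 and Twist1 (vertical) and of Skor1 (horizontal) from the mean of treatment and sex, in log2 CPM, over the 32 zQ175 mice of 6[4]10 (top) and of 2.6[8]10 (bottom), coloured by treatment. In 6[4]10 male_2 of the HTT-10150 group lies at the upper right of all 3 panels.

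Both genes that shared the pattern of Skor1 over groups, Foxd2 and Pax2, were among the 10 genes most alike from mouse to mouse. Only Foxd2 and Pax2 met the same rule as Skor1 over the 24 group means: at most 1 CPM in each WT group, and at least 1 CPM and at least 5 times WT in untreated and NTC zQ175 mice of both 10-month regimens. Untreated zQ175 mice exceeded WT mice in Pax2 by 4.34 ± 0.27 in 6[4]10 and 4.12 ± 0.26 in 2.6[8]10, and in Foxd2 by 4.68 ± 0.34 and 5.17 ± 0.30 (log2, SE), values given without a test because the rule used these groups. In these comparisons 5.35% and 4.66% of genes were called higher. Among the other 8 of the 10 most alike genes, Twist1 and Pogz were called higher in untreated zQ175 mice of 6[4]10 and Twist1 in 2.6[8]10, where Vps52 was called lower (-0.13 ± 0.03, adjusted p = 0.00673). Pold2 differed by -0.08 ± 0.05 and -0.08 ± 0.06, and was not called.

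In 2.6[8]10 Pax2 and Foxd2 were also compared between treatments of zQ175 mice. Pax2 averaged 11.2 CPM in untreated, 5.08 in NTC, 6.28 in HTT-10150 and 2.85 in HTT-634.486 mice. Foxd2 averaged 6.99, 3.43, 2.65 and 2.4 CPM in the same order, which is the order of the Skor1 means. The untreated and NTC groups entered the pattern rule that chose these genes. NTC mice were lower than untreated mice in Pax2 by -1.17 ± 0.21 (log2, SE, adjusted p = 0.000426) and in Foxd2 by -1.05 ± 0.21 (adjusted p = 0.00192), and Skor1 was not called in this comparison. HTT-634.486 mice were lower than NTC mice in Pax2 (-0.83 ± 0.22, adjusted p = 0.0294), whereas Foxd2 was not called (-0.49 ± 0.22, adjusted p = 0.283). With HTT-10150 neither Pax2 (0.32 ± 0.21, adjusted p = 0.621) nor Foxd2 (-0.36 ± 0.22, adjusted p = 0.567) was called, in a comparison with 0.871% of genes called. Whether the genes differ in these responses was not tested.

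Lists of other genes through which a Ski-family corepressor acts were compared between untreated zQ175 and WT mice of 10 months. There 11.5% of 16374 genes were called in 6[4]10 (5.35% higher, 6.19% lower) and 11.1% of 15852 in 2.6[8]10 (4.66% higher, 6.45% lower). Skor2, the closest relative of Skor1, averaged at most 0.0156 CPM in every group, and Lbx1 at most 0.0539 CPM outside the HTT-10150 zQ175 group of 6[4]10, where it averaged 0.95 CPM with male_2 at 6.85 CPM. Neither passed the filter on low counts. Of the 4 tested members of the Ski, Sno and Dach family none was called in either regimen, and Ski itself differed by -0.01 ± 0.04 in 6[4]10 and -0.07 ± 0.05 in 2.6[8]10 (log2, SE). The list median was -0.03 and 0.07, against 0.01 and 0.00 over all genes. None of 13 corepressor and histone deacetylase genes was called in untreated mice, with medians of -0.00 and 0.02, and 1 was called higher in 2.6[8]10 without the WT library with striatal markers, which shares the estimate of the spread. With every library kept, 1 of the 13 was called higher in NTC zQ175 than in NTC WT mice of 6[4]10 and of 2.6[8]10, as were 6.58% and 4.49% of all genes. With HTT-10150 against NTC in zQ175 mice of 2.6[8]10, 1 was called higher, where 0.871% of genes were called.

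The TGF-beta and BMP pathway showed called members among receptors and inhibitors. Of 15 tested ligands 1 was called lower in 6[4]10 (Bmp2, -0.52 ± 0.14, adjusted p = 0.00543) and 1 higher in 2.6[8]10 (Gdf10, 0.21 ± 0.06, adjusted p = 0.0197). Of 13 receptors 2 were called higher in both regimens, Tgfbr1 (0.21 ± 0.05 and 0.19 ± 0.05) and Acvr2a (0.19 ± 0.05 and 0.21 ± 0.07). Acvr1, a type I receptor for BMPs, was called lower in both (-0.23 ± 0.04 and -0.30 ± 0.06), and Acvr1c in 6[4]10 (-0.52 ± 0.07). Without the WT library with striatal markers 2 receptors were called lower in 2.6[8]10, and without male_2 there were 2 ligands called lower in 6[4]10. Of 6 SMADs Smad3, which carries TGF-beta and activin signals, was called lower in both (-0.34 ± 0.05, adjusted p = 5.28e-06, and -0.40 ± 0.06, adjusted p = 2.71e-06). Of 10 inhibitors of the pathway 4 were called lower in 6[4]10 and 3 in 2.6[8]10, or 5 without the WT library with striatal markers. Grem1, a BMP antagonist, differed by -0.70 ± 0.18 and -0.98 ± 0.12, and Bambi, a decoy receptor, by -0.63 ± 0.10 and -0.68 ± 0.14. None of 9 common BMP and TGF-beta target genes was called in either regimen, with medians of -0.04 and -0.08.

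Polycomb complexes hold developmental genes silent in adult neurons. Of 31 members and related demethylases 4 were called higher and 1 lower in untreated zQ175 mice of 6[4]10, and 5 higher and 2 lower in 2.6[8]10. Cbx8, a chromobox subunit of the first Polycomb complex, was higher by 0.70 ± 0.08 in 6[4]10 and by 0.69 ± 0.06 in 2.6[8]10 (log2, SE). With HTT-634.486 in 2.6[8]10 it was called lower than with NTC (-0.27 ± 0.06, SE, edgeR adjusted p = 0.00847), where 0.908% of genes were called lower. With HTT-10150 no Polycomb member was called, and 1 was called lower without that WT library. Of 30 developmental transcription factors 13 and 10 passed the filter, with 9 called higher in 6[4]10 and 7 in 2.6[8]10 and none lower. This list was drawn up with earlier results of these mice known, and members can pass the filter through the groups in which they are high, so these counts support nothing.

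None of the tested genes around Skor1 was called higher in zQ175 mice. Of 21 annotated genes within 500 kb, 17 are in the table and 10 passed the filter in each 10-month regimen. This holds for untreated mice of 2[4]6, 6[4]10 and 2.6[8]10, where 1.86%, 5.35% and 4.66% of all genes were called higher, and for NTC mice, with 2.25%, 6.58% and 4.49%. With so few genes tested, the absence of such calls is close to these shares. Map2k5, a kinase gene on the same strand whose 3′ end lies 14.8 kb upstream of the Skor1 start, differed by 0.00 ± 0.04 in untreated mice of both 10-month regimens (log2, SE, adjusted p = 0.971 and 0.974). Pias1, an E3 ligase for SUMO, differed by 0.02 ± 0.04 and 0.09 ± 0.04. The members called lower in untreated mice were Smad3 in both 10-month regimens, as given above, and the integrin gene Itga11 in 2[4]6 (-0.59 ± 0.11, adjusted p = 0.000277) and 2.6[8]10 (-0.61 ± 0.13, adjusted p = 0.000866). Of all genes 6.19% were called lower in untreated mice of 6[4]10 and 6.45% in 2.6[8]10. In NTC mice 1 neighbour was called lower in 2[4]6, 2 in 6[4]10 and 2 in 2.6[8]10.

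**Figure D5:**
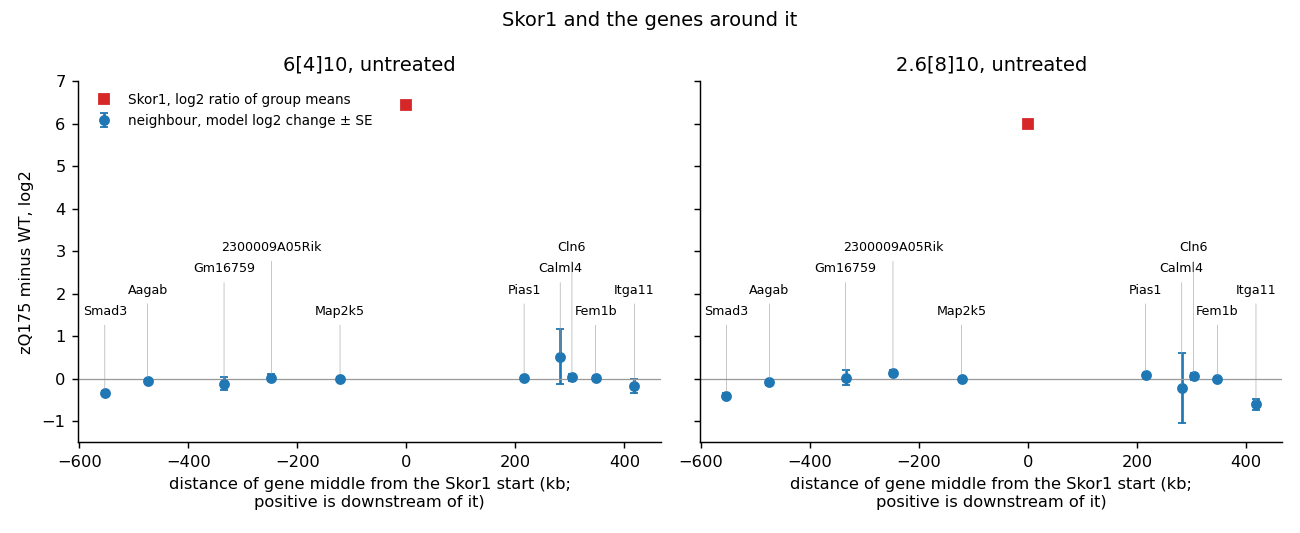
Difference between zQ175 and WT untreated mice (log2) for the tested genes within 500 kb of Skor1, against the distance of each gene's middle from the Skor1 start in kb, for 6[4]10 (left) and 2.6[8]10 (right); circles are model differences ± SE, and the square is the log2 ratio of the Skor1 group means, 6.43 and 5.99. The neighbours lie near 0 beside Skor1, Calml4 has the widest error (0.51 ± 0.65 and -0.22 ± 0.82), and Smad3 lies below 0 in both panels.

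Marker sums of other cell types and regions were compared with Skor1 over the same groups. In 2.6[8]10 zQ175 mice the summed level of 10 interneuron markers averaged 945 CPM in untreated, 951 in NTC, 951 in HTT-10150 and 995 CPM in HTT-634.486 mice. The 8 dentate granule cell markers averaged 379, 377, 426 and 431 CPM in the same order, the 8 astrocyte markers 3807, 4191, 4307 and 4569.6 CPM, and the 8 microglial markers 351, 357, 389 and 337 CPM. The 6 CA1 markers averaged 495 CPM in untreated, 517 in HTT-10150 and 569 in HTT-634.486 mice, with the NTC mean between the first 2 of these, and the 8 CA3 and CA2 markers 328, 318, 341 and 342 CPM. The astrocyte, dentate, CA1 and CA3 and CA2 sums thus had higher means in the 2 groups in which Skor1 was low, and their part in the Skor1 difference was not tested. The 8 hypothalamic markers stayed between 1.88 and 2.35 CPM in these 4 group means and the 8 cerebellar and hindbrain markers between 5.2 and 6.06 CPM. From mouse to mouse, after treatment and sex were subtracted, Skor1 gave an r with the endothelial sum of -0.48 in 6[4]10 and -0.20 in 2.6[8]10, with the astrocyte sum of -0.25 and -0.42, and with the choroid plexus sum of -0.41 and 0.06.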

How the data were processed

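Poly(A)-selected hippocampus RNA of 192 mice was sequenced, 8 mice in each of 24 groups, with groups taken from the labels. The authors deposited expected counts per gene, made with RSEM on GRCm38 per the submitters' processing notes; every value is a whole number. No source used here names the aligner or the annotation release. Of 41135 features, 41128 with an Ensembl identifier were kept, 40254 of them named in GENCODE vM21, and 7 reporter, vector and additional Htt features (6.85e-06% of counts) were left out.

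From these counts CPM were computed with TMM scaling over all libraries, with a prior count of 2 on the log2 scale. Tests used edgeR 4.0.16 (quasi-likelihood, filterByExpr, sex as covariate, 64 libraries of a regimen together, or all 192 for comparisons between regimens) in R 4.3.3, with Benjamini-Hochberg adjustment over all genes tested and a threshold of 0.05. Exact permutation tests used scipy 1.17.1. Limma 3.58.1 (voom), DESeq2 1.42.0, other scalings and filters, blocks, and leaving out replicate labels were alternatives, and those that leave out a single named library were added after the data had been seen, except leaving out the HTT-10150 mouse of 2[4]6 with most Skor1 counts from its comparison with NTC, which was planned with earlier results known. The test was checked on simulated data for HTT-634.486 against NTC in 6[4]10 (16308 genes): it called 45 of 50 genes changed 2-fold, 43 of 49 changed to a fold of 0.5, 36 of 50 changed 1.5-fold and 3 of 16109 unchanged genes.

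The gene, the lists and the rules were chosen with earlier results of these data known. The rules name Skor1, Htt and its neighbours within 500 kb, the 10 most and 5 least alike genes, genes of the same pattern over groups, and up to 4 members of each list of smallest adjusted p in untreated mice. Other names (female_4, male_2 and the library with striatal markers, with the values given for them) were chosen after their values had been seen. Same replicate labels were not taken as pairs, though same-label mice correlated slightly more than other mice. A count of 3 was taken as the detection floor. Reads carry no molecular identifiers, so floors cover counting error only.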

Additional observations from a re-analysis of the deposited data

Results flagged for a closer look

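In 2 of the 24 groups 1 mouse stood far from the other 7 by Dixon's test on Skor1 CPM, which chance alone gives in about 1 of 20 groups. The mouse female_4 of the zQ175 HTT-10150 group of 2[4]6 held 16.01 CPM, against at most 0.349 CPM in the others of its group. The mouse male_2 of the zQ175 HTT-10150 group of 6[4]10 held 30.4 CPM, against at most 15.7 CPM in the others. The values of other genes in these 2 mice are given in the report, and what sets the mice apart was not tested.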

How the results depend on the processing

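The 15 tests of Skor1 were recomputed under other tools, scalings, filters, covariates and blocks and without replicate labels or single libraries, 248 values in all, of which 229 kept their direction and their side of the threshold. The call of HTT-634.486 against NTC in 2.6[8]10 held under each, between -1.67 and -1.48 when any replicate label was left out. The HTT-10150 difference in 2[4]6 (2.34) lost its call with the replicate block (1.35), with the library-name number as a block (0.72) and in the exact permutation test on CPM (2.65), and turned to -0.05 with limma-voom and to -0.81 without female_4 of the group. It lay between -0.83 and 2.63 without each replicate label. The replicate block changed no other call. Same-label mice correlated by a mean of 0.088, 0.095 and 0.088 in the 3 regimens, above the means of other pairs, -0.012, -0.012 and -0.010. The lowest same-label pairs stood at -0.406, -0.369 and -0.426. Of 64 libraries in each regimen 22, 27 and 20 correlated best with their own label. The main tests did not take the labels as pairs, and whether same-label mice share a condition was not tested.

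Calls were gained for HTT-634.486 in 6[4]10 by the exact test (-0.47), for NTC against untreated in 2.6[8]10 by limma-voom (-0.46) and the exact test (-0.51), and for the difference between regimens by limma-voom (-1.14), with -1.27 to -1.02 without each replicate label. Direction changed for differences near 0. NTC against untreated in 2[4]6 gave -0.07 with limma-voom, -0.03 as a ratio of means, and -0.11 to 0.20 without each label, and in 6[4]10 it gave -0.03 to 0.18. HTT-10150 against NTC in 6[4]10 gave -0.10 without male_2 of the group and -0.06 to 0.24 without each label. The difference of that effect between the sexes gave 0.08 without male_2 and -0.69 to -0.02 without each label. The relation to Htt gave r of -0.30 to 0.05 in 2[4]6 and -0.22 to 0.51 in 2.6[8]10. The cause of these changes was not tested. In 2[4]6 DESeq2 gave Skor1 no adjusted p, and without replicate label female_2 Skor1 did not pass the filter, so neither has a value. Of 648 recomputed list counts 26 changed by over 1.5 times. Of 75 recomputed likeness values 5 moved out of their interval and none changed sign. With the library-name number also subtracted, likeness in 2.6[8]10 was 0.17 for Foxd2 and for Pold2. In WT mice, and at 6 months outside female_4 of zQ175 HTT-10150, few counts limit the Skor1 values.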
